A study of Mus musculus with 9 samples.

Results

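Sterol and fatty acid synthesis was examined through 39 listed gene symbols, the targets and regulators of the sterol regulatory element-binding proteins (SREBPs), in mouse embryonic stem cells with and without Sirt6. Members were the rows of the deposited count table whose symbol is on the list. The table holds Msmo1 under its older symbol Sc4mol, also listed, so 38 genes were found among 23366 named rows, 27 of them in the cholesterol branch and 11 in the fatty acid branch. The series has 9 samples of total RNA. The libraries compared were 3 of wild-type cells and 3 of cells labelled as a knockout of SIRT6, a histone deacetylase which, in the title of the series, controls elongation of transcription through pausing near promoters. Both groups were 129 SvJae F1 cells of passage 21, kept with serum and the cytokine LIF, which holds stem cells undifferentiated. A further group of 3 wild-type samples deprived of glucose was not analysed here. The labels do not say how the knockout was made or whether it was 1 clone. Nor do they say that replicates were separate cultures, so the p-values rest on sample-to-sample variation that may be purely technical.

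Cholesterol is built from acetyl-CoA by way of mevalonate, isoprenoid diphosphates and squalene, and fatty acids are built from the same acetyl-CoA by carboxylation and chain extension. SREBPs are made as membrane-bound precursors in the endoplasmic reticulum. When sterols are scarce, the escort protein SCAP carries them to the Golgi, where they are cut and released to the nucleus, and INSIG proteins retain SCAP when sterols are plentiful. SREBP2, from Srebf2, is best known for activating cholesterol genes and SREBP1, from Srebf1, fatty acid genes, often beside NF-Y, a factor that binds CCAAT boxes.

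Promoter letters were read from RefSeq (GRCm38.p6, not the build of the counts) as the 250 bases before each annotated start, which were held for 31 of the 38 genes. The 2 largest rises of the cholesterol branch with a window, Insig1 and Nsdhl, are printed 5′ to 3′ on the gene's strand, followed by Abca1 and Fasn, chosen after their values were seen because they fell. Capitals mark CCAAT (or ATTGG, the same box on the other strand) and the E-box CACGTG. Windows are chr5:28071162-28071411 (+), chrX:72918271-72918520 (+), chr4:53159896-53160145 (-) and chr11:120824548-120824797 (-).
Insig1: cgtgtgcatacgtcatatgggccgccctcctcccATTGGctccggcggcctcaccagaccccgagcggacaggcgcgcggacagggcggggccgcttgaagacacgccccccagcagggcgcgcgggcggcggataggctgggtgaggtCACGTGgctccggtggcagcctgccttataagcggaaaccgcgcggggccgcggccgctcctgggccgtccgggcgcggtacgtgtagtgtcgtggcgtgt
Nsdhl: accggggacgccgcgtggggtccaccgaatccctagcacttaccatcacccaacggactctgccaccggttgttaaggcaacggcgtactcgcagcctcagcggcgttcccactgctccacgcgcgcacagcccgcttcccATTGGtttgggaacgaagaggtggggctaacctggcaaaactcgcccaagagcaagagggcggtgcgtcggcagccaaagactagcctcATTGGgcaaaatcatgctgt
Abca1: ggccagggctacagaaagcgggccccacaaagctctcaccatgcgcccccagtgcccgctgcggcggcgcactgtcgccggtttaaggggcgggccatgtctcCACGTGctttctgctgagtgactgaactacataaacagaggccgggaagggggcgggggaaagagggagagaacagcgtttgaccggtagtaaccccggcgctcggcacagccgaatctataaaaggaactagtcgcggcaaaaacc
Fasn: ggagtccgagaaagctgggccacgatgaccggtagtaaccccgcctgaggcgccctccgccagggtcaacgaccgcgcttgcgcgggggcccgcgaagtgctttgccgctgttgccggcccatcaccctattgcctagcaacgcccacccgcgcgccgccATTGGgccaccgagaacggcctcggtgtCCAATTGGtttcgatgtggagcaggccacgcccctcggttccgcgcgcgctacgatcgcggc

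A CCAAT box on either strand lay in the window of 16 of the 17 cholesterol synthesis enzymes that had one (94.1%), against 40.2% of the 10841 tested genes with a window and 37.5% of all 27025 genes. Those with a box include Lbr, Ebp and Pmvk, for which no change was called, and Hmgcs1, which was not tested. Acat2, which rose, held no box. Of the 17 enzymes, 11 held at least 2 boxes (64.7%, against 14.5% of tested genes). Among the fatty acid genes, 4 of the 8 with a window held a CCAAT box. The E-box CACGTG was found for 6 of 23 cholesterol branch genes and 1 of 8 fatty acid genes, against 9.77% of tested genes. The letters TCACNCCAC, a strict form of the sterol regulatory element, were found in 1 member, Hmgcs1, and in 1.32% of tested genes. In Insig1 the CCAAT box began 216 bases and the E-box 101 bases before the start, and in Nsdhl the boxes began 109 and 20 bases before it. Fasn, which fell, held 3 matches, of which the palindrome CCAATTGG gives a pair that overlap. Some genes have several windows, and a gene was counted if any of them held the letters. These are letter matches, with no measurement of binding.

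The libraries held 20107037 to 29267115 counts. Sirt6 had 341 to 348 counts in the wild-type libraries and 6 to 12 in the knockout libraries, in the direction of the labels. Embryonic stem cell markers were abundant in both groups, with a summed level of 5631 to 6252 CPM (counts per 1e+06 counts of the scaled library) in wild type and 6078 to 7785 CPM in the knockout over 8 genes. Of these, 3 rose, among them the abundant Dppa5a and Tdgf1, and 3 fell, Pou5f1 by 0.46, Nanog by 0.32 and Utf1 by 0.64 on the log2 scale. The call of Nanog was lost with total counts (adjusted p = 0.150) and those of Nanog and Pou5f1 without several single replicates (0.0535 to 0.0646). Primitive endoderm markers summed to 249 to 282 CPM in wild type and 35.9 to 56.4 CPM in the knockout: 8 of 10 tested fell and 1 rose, and Ttr was at 0 in both groups. The 14 markers of fibroblast feeders (8 of 8 tested rose) summed to 10.7 to 12.0 CPM and 52.9 to 56.9 CPM. Tagln (2.21 to 21.7 CPM) and Col5a1 (6.67 to 18.1 CPM) stood highest in the knockout. Col3a1, Postn, Lox, Dcn and Twist2 were too low to be tested, with group means of at most 0.142 CPM, and Lum was at 0 in both groups. Those of trophectoderm (4 of 5 rose) summed to 30.5 to 32.5 and 72.5 to 85.1 CPM, and those of neuroectoderm (2 of 4 rose, 2 fell) to 89.7 to 94.4 and 140 to 157 CPM. The groups also differed in sex chromosome genes, looked at after values were known: Xist fell 9.43-fold and the Y-linked genes Ddx3y and Uty rose 11.8-fold and 5.21-fold, so that genotype and these differences cannot be told apart. The row of the ribosomal RNA precursor, Rn45s, fell 2.37-fold. In bulk RNA, a change in the share of cells of a type and a change in RNA per cell cannot be told apart.

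Of the 37 members tested, 23 rose and 4 fell in the knockout at an adjusted p under 0.05 (edgeR's quasi-likelihood test). Of all 14988 genes tested 55.7% were called, 27.9% as rises and 27.8% as falls. The median log2 fold change was 0.52 over the members and 0.01 over all tested genes. The cholesterol branch had 17 rises and 2 falls among 26 tested genes and a median of 0.62. The fatty acid branch had 6 rises and 2 falls among 11 and a median of 0.24, and its changes spread from -0.98 to 1.94. The groups of libraries did not overlap for 21 of 26 and 8 of 11 genes, against 63.2% of all genes. A rise of at least 1 on the log2 scale was reached by 8 cholesterol branch and 2 fatty acid genes (12.6% of all tested), and a fall of that size by Abca1 alone (9.00%). The members were chosen with earlier results known, so no test of a branch or of the difference between branches is given. With total counts as scaling, the median of all genes moves to 0.13, 62.3% of calls against 50.1% are rises, and the branch medians are 0.74 and 0.37.

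**Figure D1:**
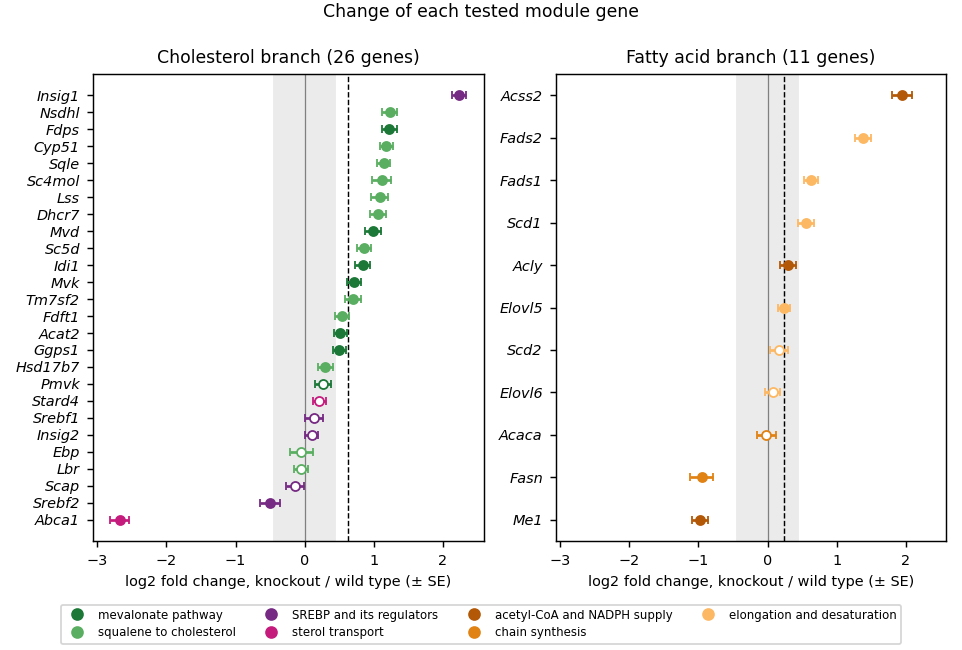
Log2 fold change of each tested member (knockout over wild type, points) with its standard error (bars), by branch and coloured by role. Filled points passed an adjusted p of 0.05, the dashed line is the branch median (0.62 and 0.24), and the grey band spans all tested genes from the lower to the upper quartile. Most cholesterol genes lie to the right of the band, with Abca1 far to the left, while the fatty acid genes spread over both sides.

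Enzymes of the mevalonate pathway rose: 6 of 7 tested, with a median log2 fold change of 0.72. Fdps, the farnesyl diphosphate synthase, stood at 110, 115 and 118 CPM in wild-type replicates 1 to 3 and at 241, 259 and 303 CPM in the knockout. Every knockout library lay above every wild-type library, and Fdps rose by 1.23 ± 0.11 (log2 ± SE; adjusted p = 5.25e-06). Mvd, the mevalonate diphosphate decarboxylase that makes isopentenyl diphosphate, read 30.2, 30.3 and 34.7 CPM against 69.7, 54.9 and 64.7 CPM. It rose 1.99-fold (adjusted p = 3.53e-05), again without overlap. Idi1, which isomerises that product, read 85.2, 85.5 and 93.3 CPM against 136, 173 and 164 CPM and rose 1.79-fold. Smaller rises without overlap were those of Mvk, the mevalonate kinase (28.7 ± 1.12 to 47.2 ± 3.59 CPM, SD, n = 3), Acat2, a cytosolic acetoacetyl-CoA thiolase (61.9 ± 3.19 to 88.7 ± 0.274 CPM), and Ggps1, which makes geranylgeranyl diphosphate (33.5 ± 1.82 to 47.5 ± 1.53 CPM). Acat2 has a near-identical neighbour, Acat3, and reads shared between them could be split. Pmvk, the kinase between Mvk and Mvd, overlapped between the groups (37.6, 40.9 and 44.8 CPM against 44.3, 47.5 and 56.7 CPM) and was not called at 0.27 ± 0.12 (adjusted p = 0.0732). Its call appeared without knockout replicate 1 (adjusted p = 0.00707), with total counts (0.0128), with the replicate block (0.0269) and with the trend on length and GC content removed (0.0430). Hmgcs1, the synthase at the head of the pathway, is listed at 0 counts in all 6 libraries, one of 3670 such rows, and no level is read from that entry.

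From squalene to cholesterol, 10 of 12 enzymes rose, with a median of 0.96. Sqle, the squalene epoxidase and a rate-limiting step, read 67.4, 63.3 and 64.1 CPM in wild type and 151, 146 and 134 CPM in the knockout. Cyp51, the lanosterol demethylase, read 56.9, 61.6 and 57.2 CPM against 134, 138 and 127 CPM. Neither pair of groups overlapped, and the genes rose 2.21-fold and 2.27-fold (adjusted p = 2.94e-06 and 2.13e-06). The next demethylation steps moved likewise: Sc4mol, the sterol C4-methyl oxidase, went from 77.1 ± 7.19 to 167 ± 28.3 CPM, and Nsdhl, its dehydrogenase partner, from 21.3 ± 0.0557 to 50.1 ± 5.36 CPM. Nsdhl read 21.3, 21.3 and 21.4 CPM in wild type and 44.3, 51.3 and 54.8 CPM in the knockout. Its log2 rise of 1.23 ± 0.11, with those of Fdps, Cyp51 and Sqle within its error, was among the largest of the cholesterol synthesis enzymes. Lss, the lanosterol synthase (45.0 ± 1.52 to 95.4 ± 14.7 CPM), Dhcr7, of the last reduction (18.2 ± 1.80 to 38.0 ± 3.30 CPM), and Sc5d, the sterol desaturase (18.9 ± 1.66 to 34.4 ± 2.06 CPM), rose 2.12-fold, 2.09-fold and 1.82-fold. Fdft1, the squalene synthase, rose less, 1.46-fold from 133 ± 3.75 CPM.

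The sterol C14-reductase step has a pair of genes, and these differed. Tm7sf2 read 11.9, 13.6 and 13.3 CPM in wild type and 23.4, 19.4 and 20.0 CPM in the knockout and rose 1.62-fold (adjusted p = 0.000405). Lbr, the lamin B receptor, which also carries this activity, read 384, 382 and 391 CPM against 403, 373 and 336 CPM. Its groups overlapped, and its log2 change was -0.06 ± 0.10 (adjusted p = 0.663), or 0.07 with total counts and -0.25 (called, adjusted p = 0.00916) with the trend on length and GC content removed. Hsd17b7, a sterol ketoreductase, was called at 0.30 ± 0.11 (adjusted p = 0.0352) but not with DESeq2 (0.0505), with that trend removed (0.0633), or without wild-type replicate 2 or 3 or knockout replicate 2 (0.0985 to 0.187). Ebp, the sterol isomerase, read 26.1, 26.2 and 27.9 CPM in wild type and 19.0, 26.4 and 32.7 CPM in the knockout. The knockout libraries lay on both sides of wild type, and the change was -0.05 ± 0.17 (adjusted p = 0.830; 0.15 without knockout replicate 1 and 0.07 with total counts). Nsdhl and Ebp are the X-linked members. Of 539 tested X-linked genes 218 rose and 107 fell, with a median of 0.20, against 0.01 for autosomal genes, and the part of this difference in the values of Nsdhl and of the X-linked genes Mbtps2, Mid1ip1 and Acsl4, given further on, was not tested.

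**Figure D2:**
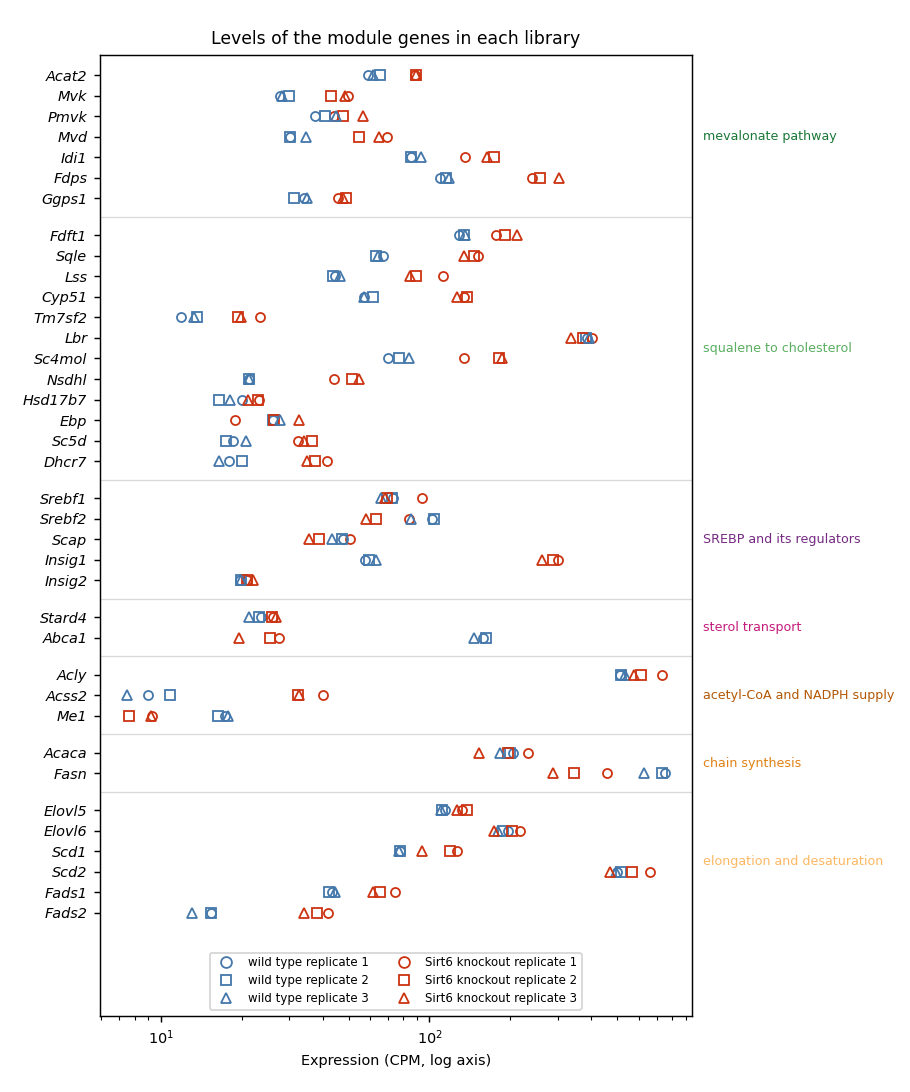
Level of each tested member in each library (CPM, log axis), with wild type in blue and the knockout in red and a symbol per replicate. In the upper blocks the red symbols lie to the right for most enzymes of cholesterol synthesis. Insig1 stands apart from the other regulators. Srebf2, Abca1, Fasn and Me1 have the red symbols to the left.

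Among the genes of SREBP and its control, Insig1 rose and Srebf2 fell. Insig1, itself a well-known SREBP target whose product retains SCAP, read 57.7, 59.8 and 63.3 CPM in wild type and 299, 287 and 263 CPM in the knockout. Its rise of 2.23 ± 0.10 (adjusted p = 9.38e-08) was the largest among the members, and the groups lay far apart. Insig2, its paralog, read 19.8, 19.8 and 19.9 CPM against 21.0, 20.9 and 22.0 CPM. The groups did not overlap, yet Insig2 was not called (0.10 ± 0.09, adjusted p = 0.373; -0.08 with the trend on length and GC content removed). Srebf2 read 102, 104 and 85.6 CPM against 83.9, 63.0 and 58.2 CPM, so that wild-type replicate 3 and knockout replicate 1 nearly met. It fell by 0.51 ± 0.14 (adjusted p = 0.0107), and the call was lost without knockout replicate 2 (-0.45, adjusted p = 0.0603) and with total counts (-0.37, 0.0627). Srebf1 overlapped between groups, at 73.1, 72.5 and 66.0 CPM against 93.7, 69.8 and 68.4 CPM. It was not called (0.13 ± 0.13, adjusted p = 0.398), stood at -0.02 without knockout replicate 1, and was called at 0.16 (adjusted p = 0.0165) with the trend on length and GC content removed. The counts per gene do not separate the Srebf1 isoforms. Scap overlapped too (46.1 ± 2.40 and 41.7 ± 7.80 CPM) and was not called at -0.14 ± 0.13, though it was without knockout replicate 1 (-0.30, adjusted p = 0.00810).

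Of the 2 transport genes 1 fell and 1 was not called. Abca1, which exports cholesterol from the cell and is a target of the liver X receptors, read 158, 162 and 147 CPM in wild type and 27.6, 25.5 and 19.6 CPM in the knockout. The groups lay far apart: Abca1 fell 6.41-fold (log2 fold change -2.68 ± 0.13, adjusted p = 1.36e-07), the largest change of any member in either direction. Primitive endoderm markers fell in the same libraries, as given above (Lama1, a laminin gene, 6.03-fold and Cubn 26.6-fold), and their part in the fall of Abca1 was not tested. Stard4, a sterol carrier, read 23.5, 23.1 and 21.4 CPM against 26.2, 25.9 and 26.8 CPM. Its groups did not overlap, but the change of 0.21 ± 0.09 was not called (adjusted p = 0.0773), except without knockout replicate 1 (0.0372), with total counts (0.0199) and when genes had to average 1 CPM (0.0485).

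Among the other genes of the liver X receptors and their targets, rises outnumbered falls. Of 9 tested genes of that list 5 rose and 1 fell, with a median of 0.64, against 27.9% rises and 27.8% falls over all genes. Every tested target on the list rose, unlike Abca1, and no receptor or partner gene was called as a rise. Abcg4, Abcg5 and Abcg8 were too low to be tested. The rises were Abcg1, another sterol exporter (16.5 ± 0.984 to 28.9 ± 6.13 CPM), Mylip, a ubiquitin ligase gene (3.11 ± 0.426 to 7.97 ± 0.599 CPM), Apoe (259 ± 25.9 to 405 ± 42.2 CPM), Lpcat3 (34.9 ± 1.19 to 60.3 ± 2.65 CPM) and Pltp (21.1 ± 0.922 to 33.6 ± 2.50 CPM). Rxra, a partner of these receptors, fell by 0.72 ± 0.13. The receptor gene Nr1h2 (57.3 ± 2.58 and 62.3 ± 9.08 CPM) was not called, nor was Nr1h3, at 1.23 ± 0.395 and 0.677 ± 0.288 CPM (adjusted p = 0.0714).

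In the supply of acetyl-CoA and NADPH, 2 of 3 fatty acid branch genes rose and 1 fell. Acss2, which activates acetate, read 8.98, 10.9 and 7.49 CPM in wild type and 40.0, 32.3 and 32.6 CPM in the knockout. It rose 3.85-fold without overlap (1.94 ± 0.15, adjusted p = 1.92e-06), the second largest rise of the members. Me1, the cytosolic malic enzyme, which makes NADPH, read 17.3, 16.4 and 17.7 CPM against 9.29, 7.66 and 9.21 CPM and fell 1.97-fold (adjusted p = 4.34e-05). Acly, which cleaves citrate to acetyl-CoA, read 512, 517 and 532 CPM against 733, 611 and 578 CPM. Its groups did not overlap, and it was called at 0.30 ± 0.12 (adjusted p = 0.0455), but not when any wild-type replicate or knockout replicate 2 was left out (0.0779 to 0.150).

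Of the 2 genes of chain synthesis 1 fell and 1 was not called. Fasn, the fatty acid synthase, read 750, 736 and 630 CPM in wild type and 459, 344 and 289 CPM in the knockout. The groups did not overlap and Fasn fell 1.94-fold (-0.95 ± 0.16, adjusted p = 0.000481), or by 0.63 on the log2 scale with the trend on length and GC content removed. Acaca, the acetyl-CoA carboxylase one step upstream, read 204, 200 and 183 CPM against 232, 196 and 153 CPM. Its knockout libraries spanned the wild-type ones and the change was -0.02 ± 0.14 (adjusted p = 0.926), with a positive sign under several settings, among them 0.11 with total counts and 0.23 (called, adjusted p = 0.00374) with that trend removed.

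Desaturases and elongases rose or were not called, 4 of 6 and 2 of 6. Fads2 and Fads1, which desaturate polyunsaturated chains, read 15.4, 15.4 and 13.1 CPM against 41.9, 38.0 and 34.1 CPM, and 43.4, 42.4 and 44.3 CPM against 74.4, 65.2 and 61.8 CPM. Both rose without overlap, 2.60-fold (adjusted p = 3.81e-06) and 1.55-fold (0.000309). Scd1, a stearoyl-CoA desaturase, read 78.0, 77.4 and 76.7 CPM against 127, 119 and 94.0 CPM and rose by 0.55 ± 0.12 (adjusted p = 0.00212). Its more abundant paralog Scd2 read 500, 517 and 494 CPM against 659, 567 and 470 CPM, overlapped and was not called (0.17 ± 0.13), though it was without knockout replicate 3 (adjusted p = 0.0351) and with the trend on length and GC content removed (0.00934). The Scd genes resemble each other closely, so shared reads could be split between them. Elovl5 was called at 0.24 ± 0.09 (adjusted p = 0.0370), a call lost without any 1 of the wild-type replicates or knockout replicate 2 (0.0999 to 0.152), when low counts were not filtered (0.0685) and once that trend was removed (0.02, adjusted p = 0.694). Elovl6, which lengthens palmitate, was not called (188 ± 8.37 and 198 ± 22.8 CPM, adjusted p = 0.569).

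Summed over its genes, the cholesterol branch stood at 1732 to 1764 CPM in the wild-type libraries and 2544 to 2573 CPM in the knockout libraries. Within it the enzymes alone stood at 1250 to 1312 and 1971 to 2050 CPM. The fatty acid branch summed to 2289 to 2440 CPM in wild type and 2022 to 2726 CPM in the knockout, so that its groups overlapped. That sum is carried by Fasn, Acly and Scd2, and the genes of chain synthesis within it stood at 814 to 954 CPM against 442 to 691 CPM. Per kilobase of annotated exon, the levels in wild type were highest for Acly (113 ± 2.23 CPM per kb, SD, n = 3) and Lbr (110 ± 1.27), followed by Scd2 (92.3 ± 2.15), Fdps (78.7 ± 2.92) and Fasn (70.2 ± 6.49). In the knockout Fdps stood at 184 ± 21.9 CPM per kb and Acly at 139 ± 17.7, with Lbr, Insig1 and Scd2 within their spread of each other (106 ± 9.52, 105 ± 6.84 and 104 ± 17.4). Among tested members, Acss2 had the lowest level per kb in wild type (2.39 ± 0.444) and Abca1 in the knockout (2.36 ± 0.404, with Me1 at 2.42 ± 0.255). The place of Fdps depends on the length used: per kilobase of its longest annotated transcript, which retains an intron, it stood at 38.7 CPM per kb in wild type and 90.6 in the knockout, there below Acly, Lbr, Insig1 and Scd2. These levels rest on exon lengths of GRCm38, which may differ from the annotation used for counting.

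The knockout libraries differed among themselves along transcript length. In the fatty acid branch, knockout replicate 1 was the highest of the 3 for 10 of 11 genes and replicate 3 the lowest for 9 of 11. In the cholesterol branch, replicate 1 was highest for 13 and replicate 3 for 9 of 26 genes, and replicate 3 was lowest for 11. Over all tested genes replicate 3 was lowest for 45.3%. The log2 ratio of replicate 1 to replicate 3 had a median of 0.33 in the fatty acid branch, 0.06 in the cholesterol branch and 0.12 over all tested genes. The median longest transcript was 4426, 3296.5 and 3262 bases in these sets. Across the 37 members this ratio and transcript length had a Pearson r of 0.70 and a Spearman rho of 0.68 (r = 0.48 over 14830 genes), and with exon length, which is shorter by over 1.2 times for 5 members, r was 0.70 and rho 0.66. The genes share both libraries, so this is a description. The largest ratio among the members was that of Fasn (0.67) and the smallest that of Ebp (-0.79). The part of this spread in the differences between the branches was not tested, and removal of each library's trend on length and GC content left branch medians of 0.53 and 0.23. In that setting the median of all genes was -0.08, with 4321 rises and 5669 falls called against 4182 and 4163 in the main test.

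**Figure D3:**
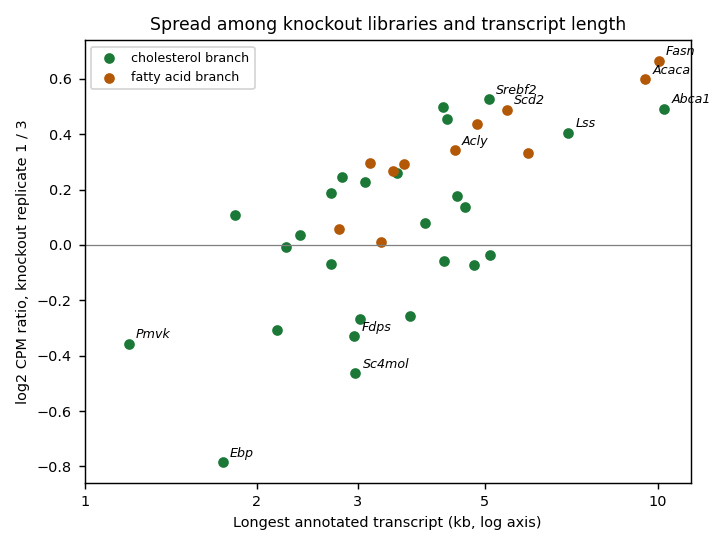
Log2 CPM ratio of knockout replicate 1 to replicate 3 (vertical axis) against the longest annotated transcript (kb, log axis) for the 37 tested members, coloured by branch. Long genes such as Fasn, Acaca and Abca1 lie at the top right and short ones such as Ebp and Pmvk at the bottom left.

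Genes around the module were counted from lists chosen for their function. Of 13 other tested genes of sterol synthesis and uptake 6 rose and 1 fell (median 0.29), against 27.9% rises and 27.8% falls over all genes. Acat1, a mitochondrial thiolase, Npc2, a lysosomal sterol carrier, the receptor gene Scarb1 and the sterol-esterifying enzyme gene Soat1 rose by 1.27, 0.97, 0.68 and 0.51. The call of Cyp46a1 at 1.10 (0.521 ± 0.321 to 1.09 ± 0.368 CPM) was lost with DESeq2 and without several single replicates (adjusted p = 0.0619 to 0.143). Vldlr was the 1 gene that fell (-0.55 ± 0.21), named after its value was seen, and it lost its call in 9 of 15 settings.

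In the list of SREBP processing and sterol-regulated protein turnover, 6 of 12 genes fell and 1 rose (median -0.25). Over all genes 27.8% fell and 27.9% rose. Both proteases that release SREBPs fell, Mbtps2 from 29.3 ± 1.99 to 21.1 ± 1.99 CPM (adjusted p = 0.00371) and Mbtps1 from 195 ± 5.37 to 154 ± 19.2 CPM (0.0187). The call of Mbtps1 was lost without wild-type replicates 1 or 2 or knockout replicate 2 (0.0716 to 0.0785) and with total counts (0.170). Syvn1, a ubiquitin ligase gene of the endoplasmic reticulum, fell by 0.74 ± 0.15. Rnf139, another ligase gene of that membrane, rose by 0.32 ± 0.09, a call lost without wild-type replicate 1 or 2 (0.0505 and 0.0592).

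Outside sterols, 3 of 12 isoprenoid genes rose and 2 fell (median 0.01), shares no higher than the 27.9% and 27.8% over all genes. The prenyltransferase subunits Pggt1b and Fntb fell by 0.85 ± 0.09 and 0.61 ± 0.12, while Coq2 and Pdss2, of ubiquinone synthesis, and Icmt rose by 0.48, 0.39 and 0.32. The calls of Pdss2 (without wild-type replicate 2 or 3, adjusted p = 0.0732 and 0.0652) and Icmt (0.0530 with limma-voom and 0.0634 to 0.158 without single replicates) were not kept throughout. Among 22 other fatty acid genes 9 rose and 5 fell (median -0.01). The mitochondrial citrate carrier gene Slc25a1, which feeds Acly, rose 2.45-fold from 47.8 ± 1.91 to 117 ± 7.96 CPM. The elongases Elovl2 and Elovl4 rose 3.71-fold and 2.50-fold, Fads3 5.29-fold from 0.716 ± 0.177 CPM, and Ptplad1, a dehydratase of elongation, 1.49-fold. Mid1ip1, which promotes polymerisation of acetyl-CoA carboxylase, fell 1.67-fold. In fatty acid activation and glycerolipid assembly 6 of 15 rose (median 0.23). Dgat2, which completes triglyceride synthesis, rose 5.81-fold from 6.10 ± 0.224 to 35.5 ± 4.70 CPM, and Mogat2 from 0.143 ± 0.0435 to 1.05 ± 0.131 CPM. Acsl4, Acsl6, Lpin2 and Lpin3 rose by 0.42 to 0.66, with the call of Acsl6 lost without wild-type replicate 2 or 3 (0.124 and 0.0610).

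**Figure D4:**
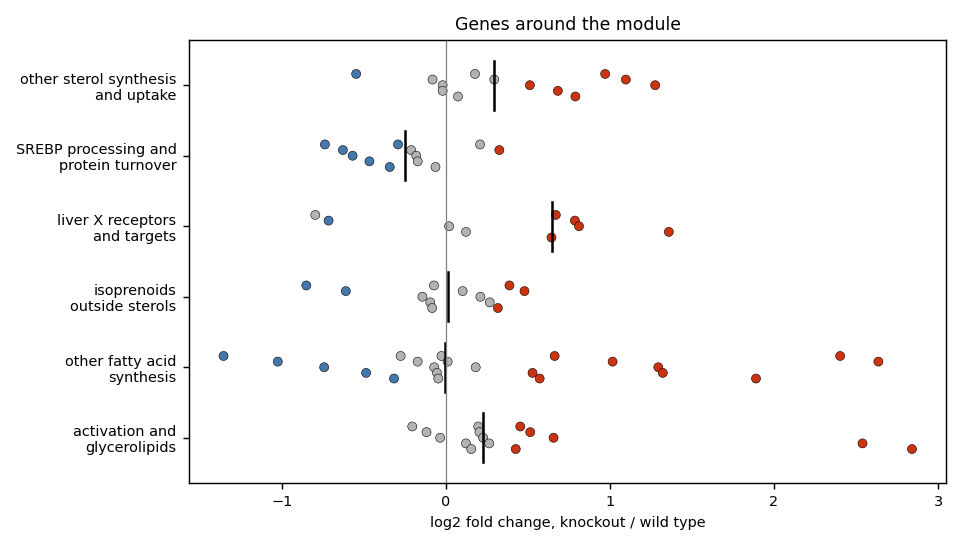
Log2 fold change (knockout over wild type) of the tested genes of 6 related lists, with red for genes that rose, blue for genes that fell and grey for genes not called. The black bars are list medians, from -0.25 for SREBP processing and protein turnover to 0.64 for the liver X receptors and their targets.

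In the authors' deposited table all 37 tested members are listed, with 23 higher and 4 lower at an adjusted p under 0.05 (23.8% and 22.0% of its 18300 genes with an adjusted p). The calls were the same as those given here for all 37, and no log2 fold change differed by more than 0.04. That table comes from the same 6 libraries as far as the labels show, so it is no further replication.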

How the data were processed

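Members and gene lists were chosen with earlier results of these data known. The authors deposited whole-number counts per gene symbol, not normalized, for 6 libraries. Tools named in the submitters' processing notes are TopHat2 2.0.10, HTSeq 0.6.1 and DESeq2, and the build named is mm9. What each was used for, the strand setting and the annotation were not given in the sources read. Per the file headers, the authors' deposited comparison holds a base mean signal, log2 fold changes with standard errors, a score (Wald statistic) and p-values.

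Counts of 14988 genes left by filterByExpr were tested two-sided with the quasi-likelihood functions of edgeR 4.0.16 (R 4.3.3) after TMM scaling, with Benjamini-Hochberg adjustment at 0.05. The test was first run on simulated data. CPM use TMM-scaled sizes, and an SE is the log2 fold change divided by the square root of F. Named genes were all members, Sirt6 and up to 6 called genes per list by adjusted p; some genes of the lists are counted but not reported here by name. Alternatives were DESeq2 size factors, total counts, 2 other filters, DESeq2 1.42.0, limma-voom (limma 3.58.1), the replicate block, size factors without X and Y genes, removal of a per-library trend on length and GC content, and each replicate left out. Lengths came from GENCODE M21, matched for 21706 rows by symbol and 1272 by an older one. Counts of a member in a library ran from 184 to 23289. Every pair of libraries differed by more than sampling noise (lowest chi-square per degree of freedom 3.73).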

Additional observations from a re-analysis of the deposited data

How the results depend on the processing

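Of the 37 members, 24 kept their direction and call under all 15 alternatives, 20 of them rises and 3 falls (Abca1, Fasn and Me1). Of 555 member values, 515 kept direction and call, 17 lost a call, 12 gained one and 11 changed sign. The genes called in the knockout against wild type, 8345 in all, numbered 6986 to 9876 when single replicates were left out. Cholesterol branch falls numbered 1 with total counts and 1 to 3 without single replicates. Signs changed for 5 members, none of them called in the main test: Acaca was at 0.115 with total counts, 0.00878 when genes had to average 1 CPM, 0.000727 with size factors without X and Y genes, 0.233 after removal of the trend on length and GC content, and from -0.159 to 0.101 without single replicates, with 0.0229 without wild-type replicate 1 and 0.101 without knockout replicate 3. Ebp was at 0.0689 with total counts and from -0.262 to 0.148 without single replicates, the latter without knockout replicate 1, Lbr at 0.0711 with total counts, Insig2 at -0.0817 after removal of that trend, and Srebf1 at -0.0218 without knockout replicate 1. The cause was not tested. Leaving out a replicate leaves 2 libraries in 1 group. The labels do not say what same-numbered wild-type and knockout libraries share. Their deviations from the group mean correlated at 0.21, -0.03 and 0.20 for replicates 1 to 3. Such deviations cancel out within a group for each gene. Neither these correlations nor the slopes of a group, given below, are therefore independent of each other. Wild-type replicate 3 with knockout replicate 1 stood at -0.22, and wild-type replicate 1 with knockout replicate 3 at -0.21. The other unlike pairs ran from -0.01 to 0.03. Slopes on transcript length fell from replicate 1 to 3 in both groups, from 0.03 to -0.03 in wild type and from 0.10 to -0.11 in the knockout. The source of this shared order was not tested. With the replicate block, 9352 genes were called, 18 cholesterol branch members rose and 2 fell, and 6 fatty acid members rose and 2 fell. Depth limits no named member, since each tested member had at least 184 counts in every library.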
